A study of Homo sapiens with 8 samples.

Results

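The genes described here are the alcohol dehydrogenases (ADH), aldehyde dehydrogenases (ALDH) and aldo-keto reductases (AKR) in CFPAC-1 cells, a human line established from a pancreatic ductal adenocarcinoma. The families were proposed with earlier results of these data known, and their members were then taken by symbol alone, as the rows of the count table named ADH, ALDH or AKR followed by the family and subfamily designation. This gave 37 genes of the 58870 in the table, of which 7 were ADH, 18 ALDH and 12 AKR genes. ALDH2 has no subfamily letter and so fell outside the naming rule, and it is given with the related genes.

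RNA from 8 CFPAC-1 samples was sequenced. One group carried an empty vector (n = 4) and the other an ADRA2A transgene (n = 4), for overexpression of an adrenergic receptor that binds noradrenaline. Both groups were grown in IMDM with 10% FBS and 1% penicillin and streptomycin for 72 hours, with no drug. The labels do not say whether the samples were separate cultures, whether a group was a pool of transduced cells or 1 clone, or which promoter drove the transgene, so p-values measure only the spread between these samples. A single cell line was used.

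ADH enzymes oxidize alcohols, including ethanol and retinol, to aldehydes with NAD, and ALDH enzymes oxidize aldehydes onward to acids. AKR enzymes work mostly in the opposite direction and reduce aldehydes and ketones, among them sugars, steroids and prostaglandins, with NADPH. Together they set the fate of reactive aldehydes in epithelial cells. The ALDH1A enzymes make retinoic acid from retinal, and ALDH1A activity is widely used as a marker of stem-like tumour cells.

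Library totals lay between 14427040 and 17528910 counts. ADRA2A had 0 counts in each empty-vector library and between 112 and 172 in each ADRA2A library. Of 9 ductal epithelial markers all were detected, with KRT8 between 71071 and 91259 counts, although CFTR had only 4 to 20 counts per library. The 4 acinar markers summed to at most 0.271 CPM and the 3 endocrine markers were at 0 in all 8 libraries. The 3 endothelial markers summed to between 0.82 and 1.49 CPM with the empty vector and between 2.15 and 2.85 CPM with the transgene. Only PECAM1 rose among them, from a mean of 0.773 to 2.44 CPM. VWF went from 0.235 to 0.0323 CPM and CDH5 from 0.0145 to 0 CPM. The 3 leukocyte markers, nearly all of it CD68, summed to between 88.1 and 95 CPM with the empty vector and between 108 and 119 CPM with the transgene. The part of these markers in the results was not tested.

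Values are CPM, counts scaled to a common library size after TMM normalization. Differences are log2 fold changes of ADRA2A over empty vector, tested in edgeR over all genes and called at a Benjamini-Hochberg adjusted p-value under 0.05. A fall in bulk RNA can reflect less RNA per cell or fewer cells that make it, and these cannot be told apart.

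Before the values, promoters are shown for genes of the ADH cluster and for a pair of retinal dehydrogenase genes. The class I genes ADH1A, ADH1B and ADH1C are near-copies of one another on chromosome 4, and their promoters show how alike genes with very different levels are. ADH6 lies in the same cluster and moved with ADH1C. Each window runs from 250 bases before to 50 bases after the RefSeq start (GRCh38.p14), 5′ to 3′ along the gene, which lies on the minus strand in all 4 cases. Capitals mark CCAAT and CACGTG on either strand. The windows are at chr4:99290936-99291235 for ADH1A, chr4:99321352-99321651 for ADH1B, chr4:99352697-99352996 for ADH1C and chr4:99219197-99219496 for ADH6.
ADH1A: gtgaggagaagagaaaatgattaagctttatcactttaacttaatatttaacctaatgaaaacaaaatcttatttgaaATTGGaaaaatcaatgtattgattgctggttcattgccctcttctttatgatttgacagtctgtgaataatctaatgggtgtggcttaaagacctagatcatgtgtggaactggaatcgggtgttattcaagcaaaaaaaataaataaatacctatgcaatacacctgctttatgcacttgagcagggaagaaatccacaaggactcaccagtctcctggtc
ADH1B: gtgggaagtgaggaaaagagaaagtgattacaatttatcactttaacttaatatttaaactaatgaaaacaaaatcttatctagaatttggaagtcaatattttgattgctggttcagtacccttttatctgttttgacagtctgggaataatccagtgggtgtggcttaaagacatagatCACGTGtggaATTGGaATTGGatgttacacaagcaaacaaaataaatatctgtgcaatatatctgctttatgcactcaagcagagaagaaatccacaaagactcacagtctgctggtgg
ADH1C: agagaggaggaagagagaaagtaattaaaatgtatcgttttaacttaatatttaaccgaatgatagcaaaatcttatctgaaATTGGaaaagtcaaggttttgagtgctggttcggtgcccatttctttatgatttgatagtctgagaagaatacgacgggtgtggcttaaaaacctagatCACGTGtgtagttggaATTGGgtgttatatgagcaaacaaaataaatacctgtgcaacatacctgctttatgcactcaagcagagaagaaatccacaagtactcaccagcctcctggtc
ADH6: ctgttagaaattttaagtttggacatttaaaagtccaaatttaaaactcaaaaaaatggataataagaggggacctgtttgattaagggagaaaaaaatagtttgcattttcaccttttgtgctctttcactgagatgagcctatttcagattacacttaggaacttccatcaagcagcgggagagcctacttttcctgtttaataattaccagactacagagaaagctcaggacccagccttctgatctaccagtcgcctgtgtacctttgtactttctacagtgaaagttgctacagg
The promoters of ADH1A and ADH1C were 82.9% identical over the aligned window, those of ADH1B and ADH1C 82.3%, and those of ADH1C and ADH6 48.0%. CACGTG stood at the same place, 69 bases before the start, in ADH1B and ADH1C, and was not in the ADH1A or ADH6 window. ADH6 held neither motif.

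The retinal dehydrogenase genes ALDH1A2 and ALDH1A3, which moved in opposite directions, both lie on chromosome 15. Their windows are chr15:58065662-58065961 on the minus strand for ALDH1A2, the more upstream of the RefSeq starts of that gene, and chr15:100879581-100879880 on the plus strand for ALDH1A3. Both windows lie inside the GENCODE spans of their genes, whose 5′ ends are at 58497866 for ALDH1A2 and 100877714 for ALDH1A3. Which starts are used in these cells was not tested. Capitals mark GGGCGG, the GC box, on either strand.
ALDH1A2: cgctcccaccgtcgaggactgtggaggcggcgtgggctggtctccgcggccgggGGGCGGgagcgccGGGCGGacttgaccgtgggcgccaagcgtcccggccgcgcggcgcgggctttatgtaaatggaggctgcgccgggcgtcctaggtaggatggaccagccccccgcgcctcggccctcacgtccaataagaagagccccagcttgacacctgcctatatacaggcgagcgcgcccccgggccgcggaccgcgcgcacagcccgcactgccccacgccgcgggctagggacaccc
ALDH1A3: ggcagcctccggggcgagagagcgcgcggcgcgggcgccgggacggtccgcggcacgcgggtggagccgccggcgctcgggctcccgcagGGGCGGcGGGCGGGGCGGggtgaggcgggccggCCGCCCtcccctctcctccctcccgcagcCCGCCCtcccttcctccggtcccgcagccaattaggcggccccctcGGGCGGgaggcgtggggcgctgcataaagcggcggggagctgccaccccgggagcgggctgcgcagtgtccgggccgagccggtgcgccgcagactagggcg
ALDH1A2 held 2 GC boxes and ALDH1A3 held 6, of which a pair overlap, in windows with 74.0% and 81.7% G and C. Promoters were found for 31 of the 37 genes. Both strands were searched for 7 motifs: GGGCGG was in the promoters of 16 of the 31 genes (45.0% of all 35116 RefSeq promoter windows), CCAAT in 17 (34.6%), CACGTG in 6 (7.26%), TATAAA in 5 (11.5%), AGGTCA, a nuclear receptor motif, in 3 (13.8%), GTTAAT in 2 (6.88%) and TGACNNNGC, the core of the antioxidant response element, in 1 (13.3%), which was AKR7A2. The 31 genes had 41 windows, and a gene was counted if any of its windows held the motif. The percentages are shares of single windows, so the gene counts cannot be compared with them directly. A match is only a match of letters.

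Of the 37 genes, 29 passed the filter on low counts and were tested. In the ADRA2A cells 12 were called higher and 8 lower, and 9 were not called. Among all 14785 genes tested, 42.7% were called, 21.6% higher and 21.1% lower. The median log2 fold change of the 29 genes was 0.02, beside 0.00 over all genes tested, and their median absolute log2 fold change was 0.28, beside 0.18. A log2 fold change of at least 1 in size was reached by 6 of them, ADH6, ALDH1A2, ADH1C and ALDH3B2 upward and ALDH1L2 and AKR1C2 downward, where 4.66% of all genes were called at that size. For 18 of the 29, every library of one group lay above every library of the other, beside 39.2% of all genes tested. Counts of all 37 genes made up between 0.205% and 0.221% of a library. Summed over all 37, the CPM was 2169 ± 56.5 with the empty vector and 2071 ± 24.5 with the transgene (SD, n = 4 each).

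**Figure D1:**
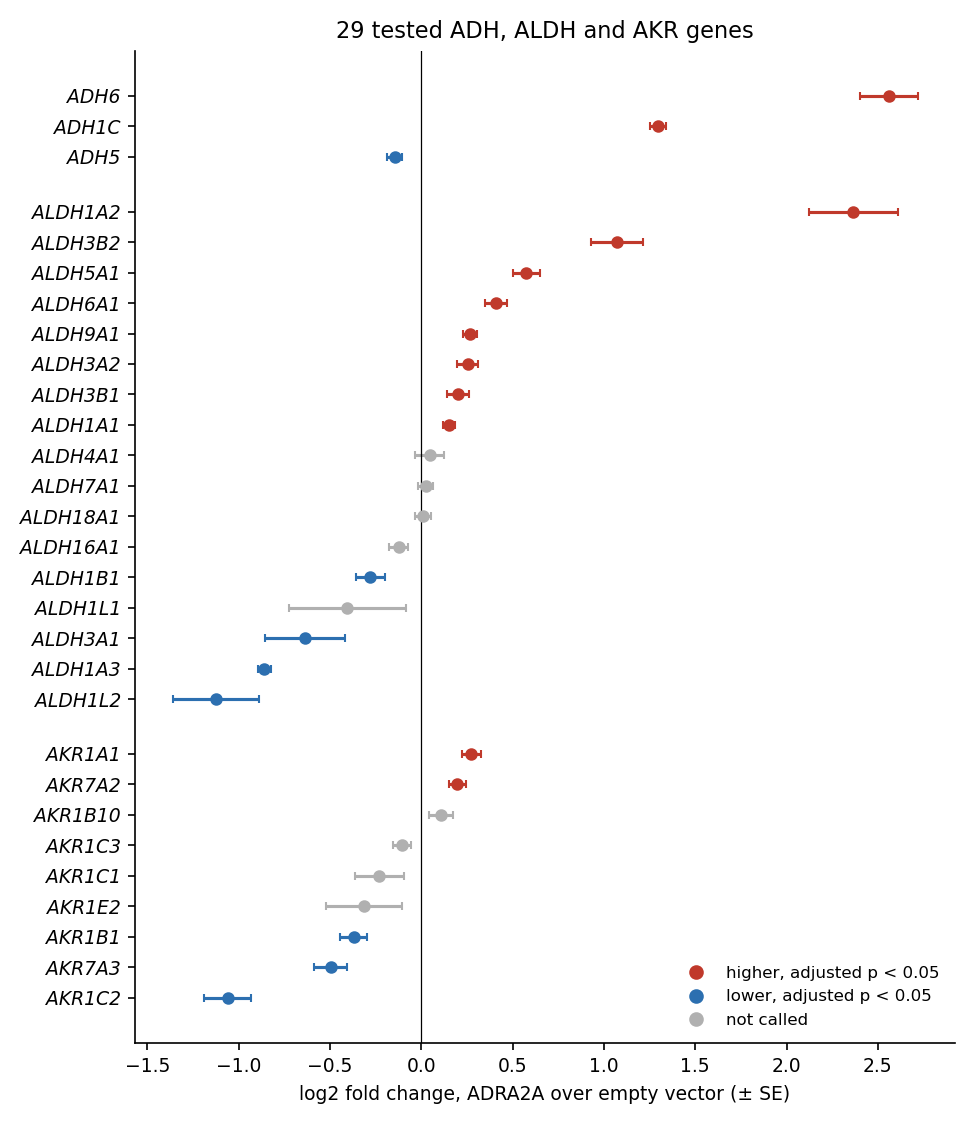
Log2 fold change of each tested gene (x axis, ADRA2A over empty vector) with its standard error, grouped as ADH, ALDH and AKR and ordered by value within each, from 8 libraries. Red marks genes called higher and blue genes called lower at an adjusted p-value under 0.05. The values run from -1.13 for ALDH1L2 to 2.56 for ADH6, and 9 genes in grey were not called.

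Among the alcohol dehydrogenases, ADH1C and ADH6 rose and ADH5 fell slightly. ADH1C (ENSG00000248144.6; GRCh38 chromosome 4, 99336497 to 99352746, minus strand) encodes a class I enzyme, the class that oxidizes ethanol in liver and gut. It had 75.4, 88.3, 81.4 and 78.9 CPM in the empty-vector libraries and 197.3, 203.9, 196.8 and 197.02 CPM in the ADRA2A libraries. Every ADRA2A library was far above every empty-vector library, and the 4 ADRA2A values were close together. The rise was 2.46-fold (log2 fold change 1.30 ± 0.04, SE; edgeR adjusted p = 2.26e-14).

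ADH6 (ENSG00000172955.17; chromosome 4, 99202638 to 99219537, minus strand) encodes a class V enzyme that was described in liver. It had 2.28, 3.12, 2.44 and 2.16 CPM in the empty-vector libraries and 17.6, 13.3, 11.6 and 16.6 CPM in the ADRA2A libraries. The groups did not overlap, and the ADRA2A libraries were more spread than those of ADH1C. ADH6 had the highest fold change of the 29 members tested, 5.90-fold (log2 fold change 2.56 ± 0.16, SE; edgeR adjusted p = 8.84e-11). For each 1 count of ADH1C there were 0.0308 ± 0.0033 counts of ADH6 in the empty-vector cells and 0.0744 ± 0.0146 in the ADRA2A cells (SD, n = 4 each).

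ADH5 (ENSG00000197894.11; chromosome 4, 99070978 to 99088801, minus strand) encodes the class III enzyme that clears formaldehyde bound to glutathione and is made in nearly all cells. Over all 8 libraries it had the highest mean CPM of the ADH genes, with 161.6, 171.3, 173.1 and 171.7 CPM in the empty-vector libraries and 153.7, 158.8, 157.01 and 143.1 CPM in the ADRA2A libraries. The groups did not overlap, but the step between them was small (log2 fold change -0.15 ± 0.04, SE; edgeR adjusted p = 0.00637). The count of ADH1C divided by that of ADH5 lay between 0.459 and 0.515 in the empty-vector libraries and between 1.25 and 1.38 in the ADRA2A libraries, so ADH1C went from fewer to more counts than ADH5. Per kb of transcript ADH1C had 55.7 ± 3.74 CPM against 63.9 ± 2.0 CPM for ADH5 in the empty-vector cells, and 136.7 ± 2.36 against 57.8 ± 2.64 in the ADRA2A cells (SD, n = 4 each).

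The other 4 ADH genes of the cluster were too low to be tested. ADH4 and ADH7, the class II and class IV genes, had 0 counts in all 8 libraries, and a count of 0 allows up to between 0.172 and 0.208 CPM in a library (counting error only). ADH1B had 0 counts in each empty-vector library and 2, 4, 6 and 6 in the ADRA2A libraries. ADH1A had 0 counts in each empty-vector library and 3, 3, 0 and 0 in the ADRA2A libraries. The coding sequences of ADH1B and ADH1C are 95.6% identical and those of ADH1A and ADH1C 93.9%. Of the 50-base stretches of the ADH1B transcript 5.72% occur unchanged in that of ADH1C, so a few reads of one can be credited to the other. The estimated counts of ADH1B and ADH1C had decimals in all 4 ADRA2A libraries, a sign of reads divided between genes.

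Of the 20 tested genes nearest to ADH1C, 10 on either side, 3 were called higher and 10 lower (median log2 fold change -0.14). Among all genes tested, 21.6% were called higher and 21.1% lower. ADH6 was 1 of the 3 neighbours called higher. The nearest tested gene beyond ADH1C, TRMT10A, was not called (-0.03 ± 0.08 on the log2 scale, SE; edgeR adjusted p = 0.794). Its farther neighbours H2AFZ and DAPP1 fell (log2 fold changes -0.40 and -0.33), whereas BANK1 rose by 1.09 (edgeR adjusted p = 1.54e-07). These genes were named after their values were seen.

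**Figure D2:**
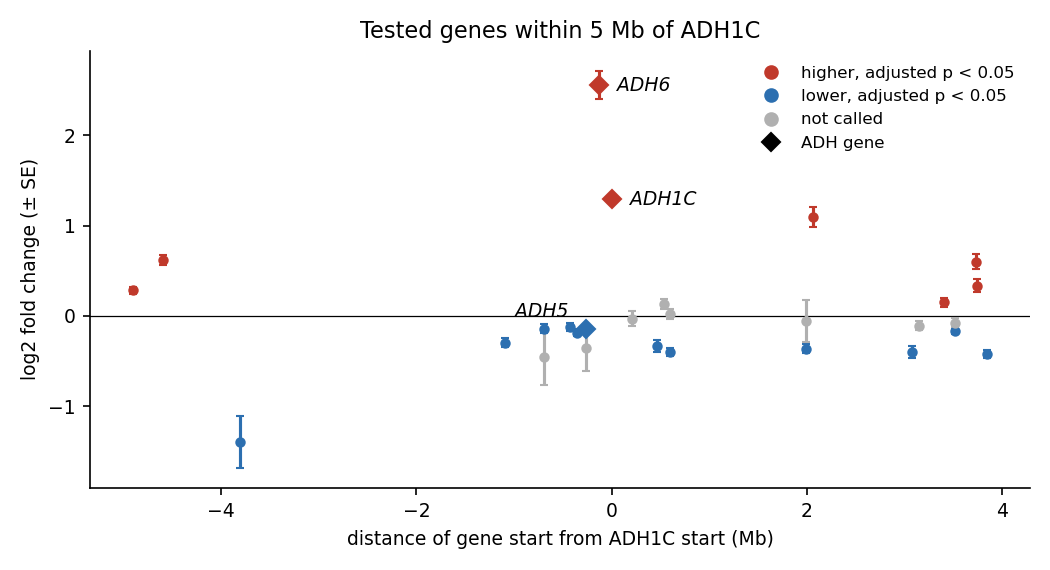
Log2 fold change with its standard error (y axis, ADRA2A over empty vector) of every tested gene within 5 Mb of the start of ADH1C, by the distance of its start from that of ADH1C in Mb along chromosome 4. Diamonds are ADH genes, red and blue mark genes called higher and lower. ADH6 at 2.56 and ADH1C at 1.30 stand above the tested genes on either side of them, and ADH5 at -0.15 lies among its neighbours.

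Of the 3 retinal dehydrogenases, ALDH1A3 went down, whereas ALDH1A2 and ALDH1A1 went up by very different amounts. ALDH1A3 (ENSG00000184254.17; chromosome 15, 100877714 to 100916626, plus strand), the ALDH gene with the highest mean CPM over all 8 libraries, fell. It had 627, 658, 695 and 673 CPM in the empty-vector libraries and 354, 375, 371 and 362 CPM in the ADRA2A libraries. The lowest empty-vector library was well above the highest ADRA2A library. The change was 1.81-fold downward (log2 fold change -0.86 ± 0.04, SE; edgeR adjusted p = 2.60e-13). Of the 20 tested genes nearest to ALDH1A3, 8 were called higher and 1 lower, beside 21.6% and 21.1% of all genes tested.

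ALDH1A2 (ENSG00000128918.15; chromosome 15, 57953424 to 58497866, minus strand), the main retinoic acid producing enzyme of the early embryo, rose from a low level. It had 0.76, 1.02, 0.52 and 0.79 CPM in the empty-vector libraries, from 9 to 15 counts each, and 3.32, 4.42, 3.89 and 4.24 CPM in the ADRA2A libraries, from 48 to 68 counts each. The groups did not overlap, and the rise was 5.15-fold (log2 fold change 2.36 ± 0.24, SE; edgeR adjusted p = 1.62e-07). With 9 counts in its lowest library, the empty-vector group alone would not have passed the filter on low counts. The gene was tested because the ADRA2A libraries, where it was higher, also entered the filter. ALDH1A1 (ENSG00000165092.13; chromosome 9, 72900671 to 73080442, minus strand), the enzyme most often meant by ALDH activity in stem cell assays, rose slightly from 324 ± 8.87 to 359 ± 9.32 CPM (SD, n = 4 each; log2 fold change 0.15 ± 0.03, SE; edgeR adjusted p = 0.00112). Its libraries did not overlap between the groups.

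The balance among the 3 enzymes was described by ratios and sums chosen after their values were seen. The count of ALDH1A1 divided by that of ALDH1A3 was 0.510, 0.512, 0.461 and 0.472 in the empty-vector libraries and 1.018, 0.952, 0.999 and 0.961 in the ADRA2A libraries. Per kb of the longest transcript, ALDH1A3 stood above ALDH1A1 in the empty-vector cells, at 191.2 ± 8.27 against 154.4 ± 4.23 CPM per kb. In the ADRA2A cells the order was turned, with 171.3 ± 4.45 CPM per kb for ALDH1A1 and 105.4 ± 2.67 for ALDH1A3 (SD, n = 4 each). ALDH1A2 reached only 1.07 ± 0.131 CPM per kb in the ADRA2A cells. The summed CPM of the 3 genes went from 987.5 ± 29 to 728.6 ± 14.8 (SD, n = 4 each).

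**Figure D3:**
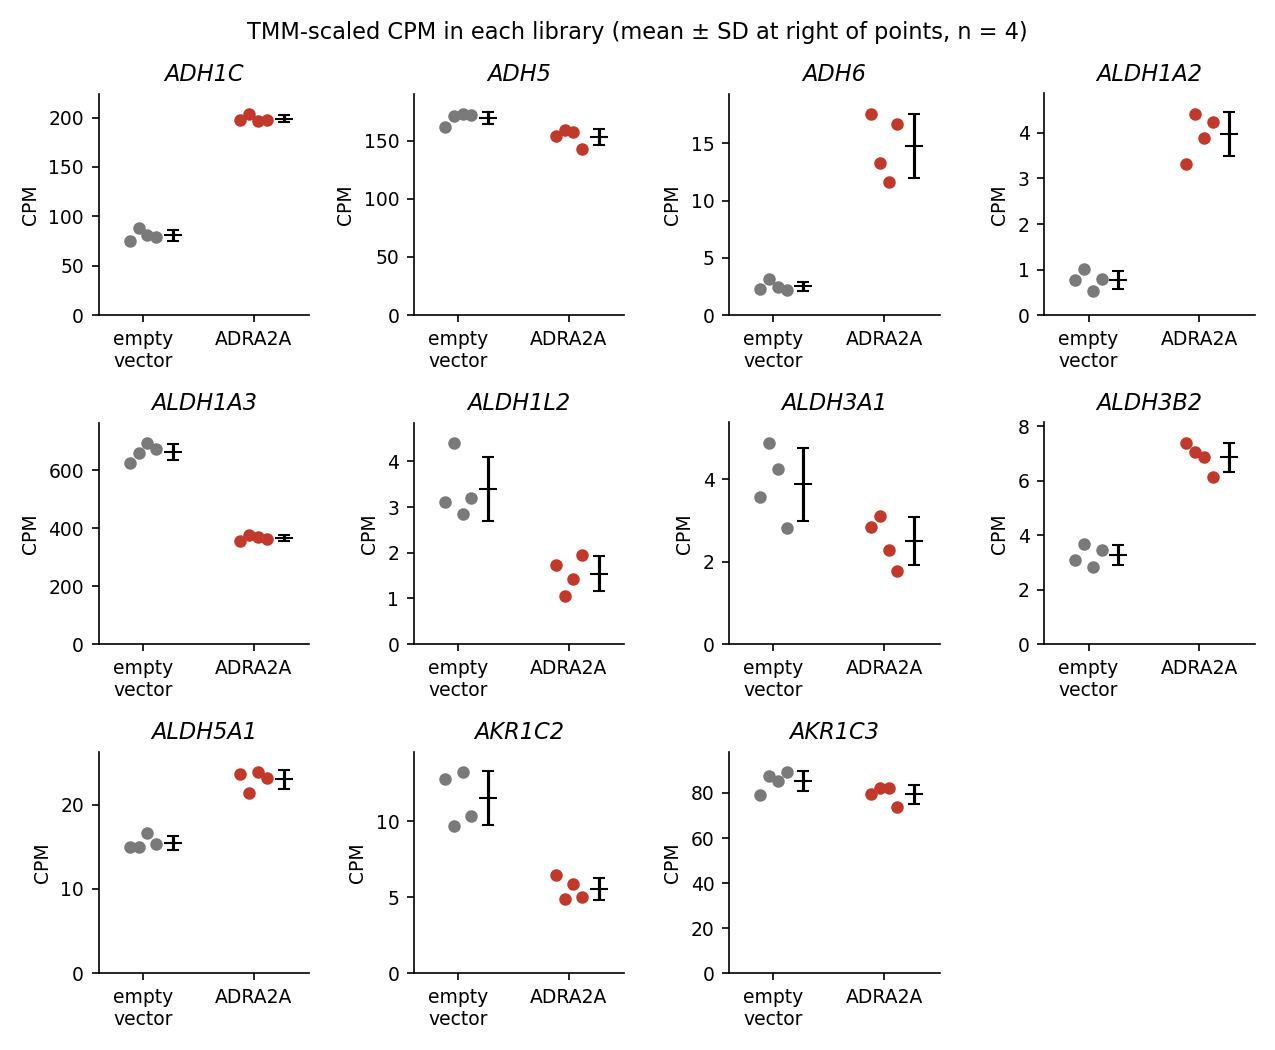
TMM-scaled CPM (y axis, from 0, a scale of its own in each panel) in each of the 4 empty-vector and 4 ADRA2A libraries for the 11 members described library by library, with mean ± SD beside the points. All 4 ADRA2A points lie above the empty-vector points for ADH1C, ADH6, ALDH1A2, ALDH3B2 and ALDH5A1, whereas the points of ALDH3A1 and AKR1C3 overlap between the groups.

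Of the ALDH3 genes, ALDH3B2 rose and ALDH3A1 was lower. ALDH3B2 (ENSG00000132746.14; chromosome 11, 67662155 to 67681224, minus strand) encodes a lipid-associated aldehyde dehydrogenase of epithelia. It had 3.10, 3.66, 2.85 and 3.47 CPM in the empty-vector libraries and 7.40, 7.06, 6.87 and 6.14 CPM in the ADRA2A libraries, without overlap (log2 fold change 1.07 ± 0.14, SE; edgeR adjusted p = 5.24e-06). Its nearby paralog ALDH3B1, at a far higher CPM, rose less, from 86.1 ± 8.56 to 98.8 ± 4.91 CPM (SD, n = 4 each; log2 fold change 0.20 ± 0.06, SE; edgeR adjusted p = 0.0089), and its libraries overlapped.

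ALDH3A1 (ENSG00000108602.18; chromosome 17, 19737984 to 19748943, minus strand) encodes the aldehyde dehydrogenase that is abundant in cornea. It had 3.57, 4.89, 4.24 and 2.81 CPM in the empty-vector libraries and 2.84, 3.10, 2.29 and 1.77 CPM in the ADRA2A libraries. The groups overlapped, and the call was narrow (log2 fold change -0.64 ± 0.22, SE; edgeR adjusted p = 0.0245). The call was lost without empty-vector replicate 2 (edgeR adjusted p = 0.0922), empty-vector replicate 3 (0.0628), ADRA2A replicate 3 (0.0609) or ADRA2A replicate 4 (0.0827). Next to it on the chromosome, ALDH3A2, which oxidizes fatty aldehydes, rose from 34.0 ± 1.49 to 40.6 ± 2.23 CPM (SD, n = 4 each; log2 fold change 0.25 ± 0.06, SE; edgeR adjusted p = 0.00125). Of its 20 nearest tested genes, 0 were called higher and 6 lower. Of the 20 nearest to ALDH3A1, itself lower, 1 was called higher and 6 lower (median log2 fold change -0.14). Among all genes tested, 21.6% were called higher and 21.1% lower. The part of this stretch in these results was not tested.

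ALDH5A1 (ENSG00000112294.12; chromosome 6, 24494867 to 24537207, plus strand), the succinic semialdehyde dehydrogenase that ends the breakdown of GABA, had 14.9, 14.9, 16.6 and 15.3 CPM in the empty-vector libraries and 23.7, 21.4, 23.9 and 23.1 CPM in the ADRA2A libraries. All ADRA2A libraries were higher (log2 fold change 0.58 ± 0.07, SE; edgeR adjusted p = 2.95e-06). ALDH6A1, the methylmalonate semialdehyde dehydrogenase of valine breakdown, rose from 34.8 ± 2.05 to 46.2 ± 2.78 CPM (SD, n = 4 each; edgeR adjusted p = 1.21e-05). ALDH9A1, a cytosolic enzyme of carnitine synthesis, rose from 97.4 ± 3.50 to 117.1 ± 2.30 CPM (SD, n = 4 each; edgeR adjusted p = 2.05e-05). ALDH4A1 of proline breakdown, ALDH7A1 of lysine breakdown and ALDH18A1 of proline synthesis had log2 fold changes of 0.05, 0.02 and 0.01, with standard errors of 0.08, 0.04 and 0.04.

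Both ALDH1L genes, which encode 10-formyltetrahydrofolate dehydrogenases of one-carbon metabolism, were low. The mitochondrial ALDH1L2 (ENSG00000136010.14; chromosome 12, 105019784 to 105107643, minus strand) had 3.10, 4.41, 2.85 and 3.21 CPM in the empty-vector libraries and 1.73, 1.06, 1.43 and 1.96 CPM in the ADRA2A libraries. Its groups did not overlap, a fall of 2.18-fold (log2 fold change -1.13 ± 0.24, SE; edgeR adjusted p = 0.000656). The cytosolic ALDH1L1, with 11 to 25 counts per library, was not called (-0.41 ± 0.32 on the log2 scale, SE; edgeR adjusted p = 0.331). ALDH1B1, a mitochondrial acetaldehyde dehydrogenase, fell from 18.4 ± 0.933 to 15.1 ± 0.949 CPM (SD, n = 4 each; edgeR adjusted p = 0.0071). ALDH16A1, a divergent family member, was not called (log2 fold change -0.12 ± 0.05, SE; edgeR adjusted p = 0.0516), and ALDH8A1, with 0 to 4 counts per library, was not tested.

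**Figure D4:**
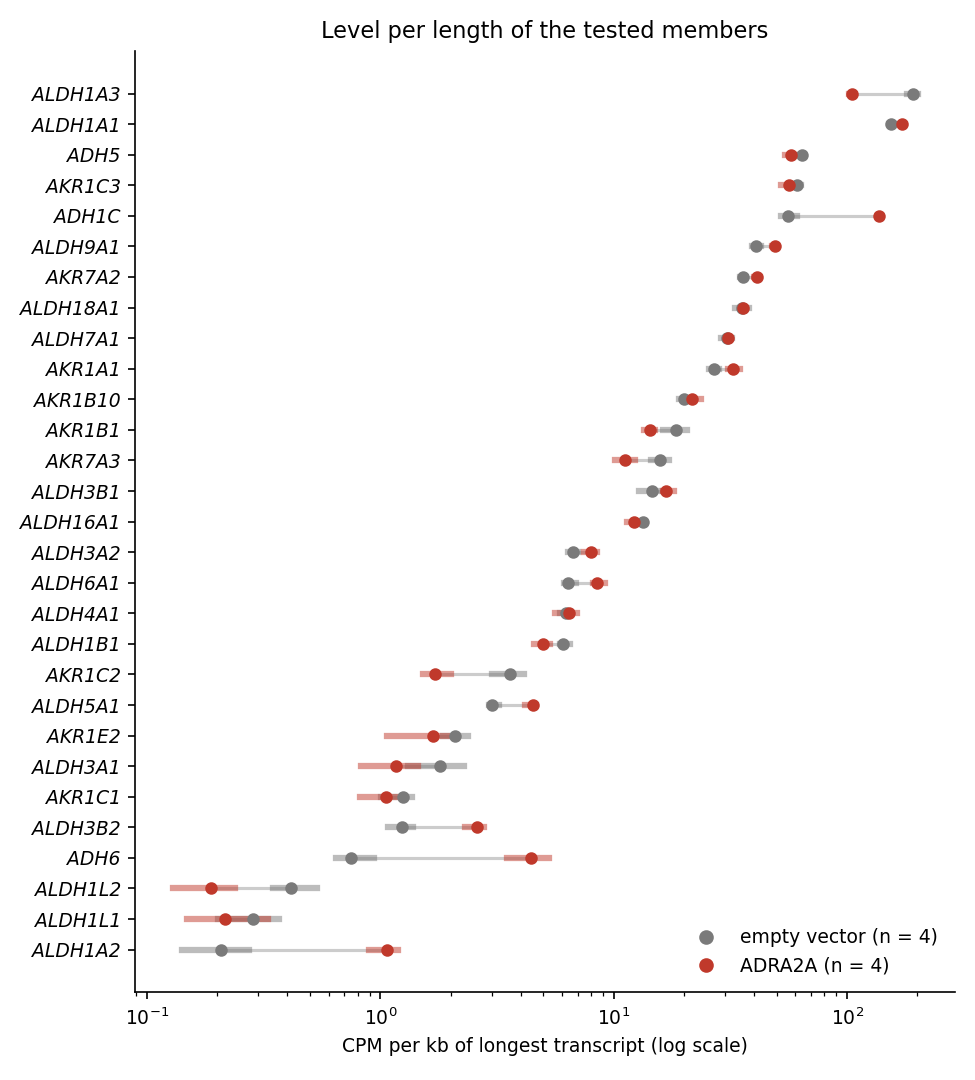
Level of the 29 tested members as CPM per kb of the longest annotated transcript (x axis, log scale), ordered by the empty-vector mean. Points are group means, thick bars the range over 4 libraries, and grey lines join the 2 means of a gene. ALDH1A3 is first in the empty-vector cells at 191.2 and stands at 105.4 in the ADRA2A cells, behind ALDH1A1 and ADH1C.

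Of the 9 aldo-keto reductase genes tested, 2 were called higher and 3 lower (55.6% called, beside 42.7% of all genes tested), and only AKR1C2 changed by a log2 fold change of 1 or more. AKR1C2 (ENSG00000151632.17; chromosome 10, 4987775 to 5018031, minus strand) encodes a 3-alpha-hydroxysteroid dehydrogenase that inactivates dihydrotestosterone. It had 12.8, 9.70, 13.2 and 10.3 CPM in the empty-vector libraries and 6.44, 4.88, 5.84 and 5.0 CPM in the ADRA2A libraries. The groups did not overlap, a fall of 2.09-fold (log2 fold change -1.06 ± 0.13, SE; edgeR adjusted p = 1.57e-06).

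The neighbouring AKR1C1, which inactivates progesterone, was not called (8.15 ± 1.12 and 6.93 ± 1.07 CPM, SD, n = 4 each; edgeR adjusted p = 0.183). The coding sequences of AKR1C1 and AKR1C2 are 98.0% identical, and the estimated counts of both had decimals in all 8 libraries, so the division of reads between them is uncertain. Summed over both, the level went from 19.7 ± 1.23 to 12.5 ± 1.61 CPM without overlap (SD, n = 4 each; exact two-sided permutation test, p = 0.0286, the smallest that 4 against 4 libraries can give). This sum was chosen after the data were seen.

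AKR1C3 (ENSG00000196139.14; chromosome 10, 5035354 to 5107686, plus strand) encodes an enzyme that makes testosterone and prostaglandin F and had the highest mean CPM of the AKR genes over all 8 libraries. It had 79.2, 87.5, 85.4 and 89.5 CPM in the empty-vector libraries and 79.4, 82.3, 82.4 and 73.6 CPM in the ADRA2A libraries. These overlapped, and the gene was not called (log2 fold change -0.10 ± 0.05, SE; edgeR adjusted p = 0.098). AKR1C4, the liver member, had 0 to 9 counts and was not tested. The CPM summed over AKR1C1 to AKR1C4 went from 105.2 ± 4.59 to 92.2 ± 3.89 (SD, n = 4 each; log2 difference -0.19, exact two-sided permutation test, p = 0.0286). The groups did not overlap, also with any 1 library left out, and without any 1 of the ADRA2A libraries the exact permutation p was 0.0571. With so few libraries the exact p-value moves in coarse steps, so the rise from 0.0286 does not by itself measure lost evidence.

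Among all genes tested, 21.6% were called higher and 21.1% lower. Of the 20 tested genes nearest to AKR1C2, 3 of them AKR genes, 0 were called higher and 8 lower (median log2 fold change -0.17). The part of this stretch in the fall of AKR1C2 was not tested. AKR1E2, at the same locus, was not called (log2 fold change -0.31 ± 0.21, SE; edgeR adjusted p = 0.236).

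Outside that cluster, AKR1B1, the aldose reductase that opens the polyol pathway by reducing glucose to sorbitol, fell from 35.7 ± 3.64 to 27.6 ± 1.51 CPM (SD, n = 4 each; log2 fold change -0.37 ± 0.07, SE; edgeR adjusted p = 0.000311). AKR1B10, a retinal and lipid aldehyde reductase that is often raised in pancreatic and lung tumours, was at 32.4 ± 1.34 and 34.9 ± 3.05 CPM and was not called (SD, n = 4 each; edgeR adjusted p = 0.198). AKR1A1, the aldehyde reductase of glucuronate metabolism, rose by 0.27 ± 0.05 on the log2 scale (SE; edgeR adjusted p = 0.000226). Of its 20 nearest tested genes, 7 were called higher and 0 lower (median log2 fold change 0.14), beside 21.6% and 21.1% of all genes tested. The aflatoxin aldehyde reductases AKR7A2 and AKR7A3 adjoin each other on chromosome 1 and moved in opposite directions. AKR7A2 rose from 48.8 ± 1.33 to 55.9 ± 1.47 CPM (edgeR adjusted p = 0.00196) and AKR7A3 fell from 19.2 ± 1.68 to 13.6 ± 1.35 CPM (edgeR adjusted p = 0.00016; SD, n = 4 each). Of the 20 tested genes nearest to AKR7A2, 10 were called higher and 2 lower (median log2 fold change 0.19). For AKR7A3 these counts were 10 and 1 (median 0.19). The part of the stretch in either result was not tested. The coding sequences of AKR7A2 and AKR7A3 are 85.3% identical. Estimated counts of AKR7A3 had decimals in 5 libraries and those of AKR7A2 in 0, and the part of shared reads was not tested. AKR1D1 had 0 counts in all 8 libraries and AKR1B15 had 0 to 6, and neither was tested.

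The genes around these enzymes were read from 3 hand-written lists that hold none of the 37 members. In the retinoid list, 21 of 25 genes were tested, of which 7 were called higher and 4 lower (52.4% called, beside 42.7% of all genes tested). Its median log2 fold change was 0.10. RDH5, a retinol dehydrogenase, rose from 2.94 ± 0.873 to 9.45 ± 2.01 CPM (SD, n = 4 each; log2 fold change 1.69 ± 0.19, SE; edgeR adjusted p = 6.58e-07). STRA6, the receptor that takes up retinol from its blood carrier, rose by 0.89 ± 0.08 on the log2 scale (SE; edgeR adjusted p = 1.35e-08). LRAT, which stores retinol as esters, fell from 6.91 ± 0.556 to 3.08 ± 0.766 CPM (SD, n = 4 each; log2 fold change -1.17 ± 0.17, SE; edgeR adjusted p = 1.10e-05). The retinal reductase DHRS3 was also called higher (log2 fold change 0.57), and was named after its values were seen. Of the enzymes that degrade retinoic acid, CYP26A1 had 0 to 4 counts and was not tested, and CYP26B1 was narrowly called higher (0.57 on the log2 scale; edgeR adjusted p = 0.044), a call lost in 8 alternative fits, 5 of which left out 1 library. Of the retinoic acid receptors, RARB had 0 counts in all libraries, RARA was not called and RARG rose (0.23 on the log2 scale; edgeR adjusted p = 0.000503). These genes were also named after their values were seen. Beside LRAT, the 4 lower genes were CRABP2, RDH11 and DHRS9, with log2 fold changes between -0.19 and -0.10. That count was 1 without empty-vector replicate 2 and 2 without empty-vector replicate 3, ADRA2A replicate 1 or ADRA2A replicate 4.

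The NRF2 list holds genes that the antioxidant transcription factor NRF2 is known to activate, with NRF2 itself (NFE2L2) and its inhibitor KEAP1. AKR1B10 and the AKR1C genes are also known targets. All 30 genes were tested, of which 7 were called higher and 15 lower (73.3% called, beside 42.7% of all genes tested). Among all genes tested, 21.6% were called higher and 21.1% lower. The median log2 fold change of the list was -0.15. ME1 (malic enzyme) fell from 19.9 ± 0.336 to 11.5 ± 1.14 CPM (SD, n = 4 each; log2 fold change -0.79 ± 0.08, SE; edgeR adjusted p = 2.70e-07). ABCC2, an export pump, fell from 3.0 to 1.99 CPM (-0.59 ± 0.20 on the log2 scale, SE; edgeR adjusted p = 0.0256), a call that was lost without empty-vector replicate 1 (edgeR adjusted p = 0.0697), empty-vector replicate 3 (0.0653) or ADRA2A replicate 1 (0.0787). NQO1, the quinone reductase, fell from 299 ± 10.8 to 232 ± 11.9 CPM (SD, n = 4 each; edgeR adjusted p = 4.03e-07). NFE2L2 rose slightly (log2 fold change 0.15 ± 0.04, SE; edgeR adjusted p = 0.00284), and KEAP1 was not called (log2 fold change 0.05 ± 0.05, SE; edgeR adjusted p = 0.423).

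Other enzymes of alcohols, aldehydes and ketones formed the last list, with 30 of 32 genes tested, 10 called higher and 3 lower (43.3% called, beside 42.7% of all genes tested), and a median log2 fold change of 0.12. ALDH2, the mitochondrial enzyme that clears acetaldehyde from ethanol, rose from 83.7 ± 7.60 to 108.5 ± 2.34 CPM (SD, n = 4 each; log2 fold change 0.37 ± 0.05, SE; edgeR adjusted p = 8.91e-06). SORD, which turns the sorbitol made by AKR1B1 into fructose, rose from 75.3 ± 2.99 to 100.1 ± 4.82 CPM (SD, n = 4 each; log2 fold change 0.41 ± 0.05, SE; edgeR adjusted p = 5.29e-07), so the 2 enzymes of the polyol pathway moved in opposite directions. The called genes with the largest changes, HSD17B2 (log2 fold change -0.62), ADHFE1 (0.58) and KHK (0.56), were at 5.09 CPM or less. Their calls were narrow (edgeR adjusted p = 0.0412, 0.0176 and 0.0368), and leaving out 1 library ended the call in 6 of 8 fits for HSD17B2, 2 for ADHFE1 and 4 for KHK. The HSD17B2 call was also lost with limma voom (adjusted p = 0.07) and in 1 other alternative fit. The count of 10 was 6 without empty-vector replicate 3 and 5 without ADRA2A replicate 2.

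**Figure D5:**
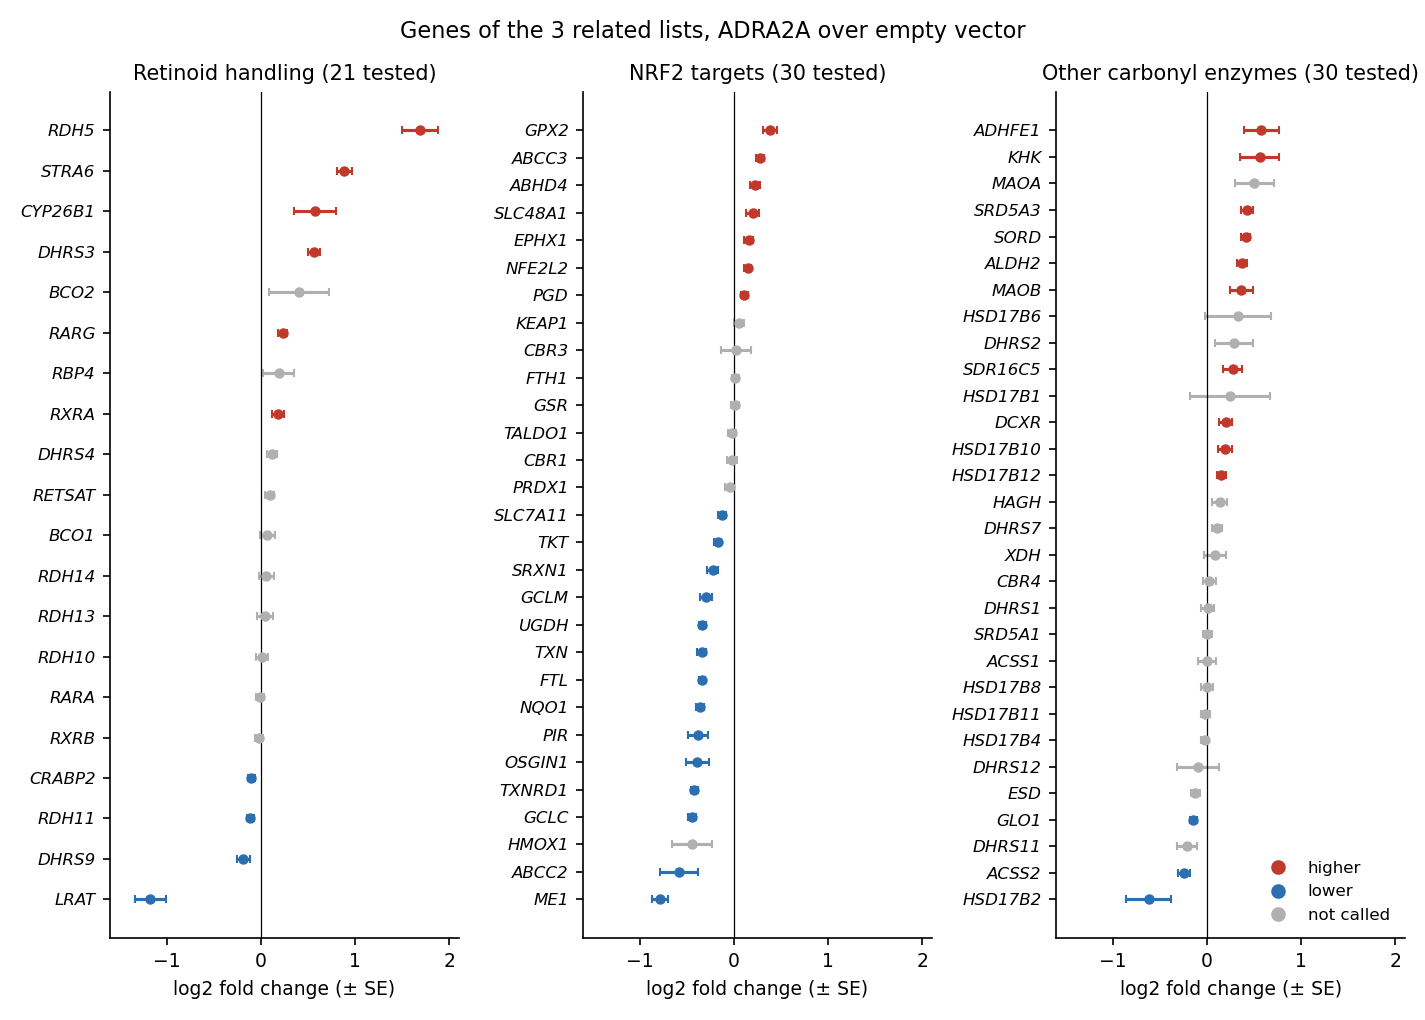
Log2 fold change with its standard error (x axis, ADRA2A over empty vector) of tested genes of the 3 lists, 2 of them left out, ordered by value within each list. Red marks genes called higher and blue genes called lower at an adjusted p-value under 0.05. The retinoid list runs from LRAT at -1.17 to RDH5 at 1.69, and the NRF2 list from ME1 at -0.79 to GPX2 at 0.38.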

How the data were processed

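RNA sequencing of 4 empty-vector and 4 ADRA2A samples of CFPAC-1 was analysed. The authors deposited 1 table of RSEM estimated counts per gene, not scaled between samples. The submitters' processing notes name cutadapt, STAR, RSEM, DESeq2 and hg38 without versions or order, and the annotation release and use of strand are not given in the sources used here, so overlapping and antisense genes cannot be separated. RSEM divides multi-mapping reads between genes, and between 4.61% and 4.9% of entries had decimals. All 8 columns were matched to samples by the name in brackets in the title.

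Estimated counts were rounded. Genes were kept by filterByExpr, scaled by TMM and tested with the quasi-likelihood test of edgeR 4.0.16 in R 4.3.3 (limma 3.58.1 and DESeq2 1.42.0 served the alternatives), with Benjamini-Hochberg adjustment over the 14785 genes tested and a threshold of 0.05. Standard errors were derived from the F statistic. The procedure was also run on data simulated with the same biological coefficient of variation for every gene. The outcome is not reported here, so that run lends no support to the results. Replicates of a group differed by more than sampling noise (chi-square per degree of freedom between 2.12 and 4.55), and the common biological coefficient of variation was 4.96%. Positions and transcript lengths came from GENCODE 44 on GRCh38, with 99.4% of identifiers matched. Promoters came from RefSeq (GRCh38.p14), and sequences were aligned with Biopython 1.88.

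The gene families and lists were chosen with earlier results of these data known. Library values are given for called members whose higher group mean reached 1 CPM and whose log2 fold change was 0.5 or more in size, and for the most abundant ADH, ALDH and AKR gene. From each list the 3 called genes with the largest changes at 1 CPM or more are named, with ALDH2, SORD, NFE2L2, KEAP1 and NQO1. Some genes of the lists enter the counts but are not reported here. Alternatives were RLE and upper quartile factors, DESeq2, limma voom, 2 other filters, a replicate block and leaving out each library.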

Additional observations from a re-analysis of the deposited data

Results flagged for a closer look

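Of 68 checks of a group of 4 libraries for 1 library far from the rest, 8 met the criterion, and chance alone meets it in about 1 of 20 such groups. Some checks were of sums of the same genes, so the checks are not all separate. ADRA2A replicate 4 was apart in 3 genes: ALDH3B1 (106.2 CPM, the next 96.8), ALDH6A1 (50.28 CPM, the next 45.4) and AKR1E2 (1.771 CPM, the next 3.09). ADRA2A replicate 2 was highest for ADH1C (203.9 CPM, the next 197.3) and for the sum of ADH1A to ADH1C (204.4 CPM, the next 197.6). That sum is nearly all ADH1C, so its flag repeats the flag of ADH1C. In the empty-vector group, replicate 3 was highest for ALDH1B1 (19.75 CPM, the next 18.04), replicate 2 was highest for ALDH1A1 (336.8 CPM, the next 320.2) and replicate 1 was lowest for ADH5 (161.6 CPM, the next 171.3).

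Among the genes too low to be tested, a signal was present in the ADRA2A libraries and not in the controls for 2 class I genes. ADH1B had 18 counts over the 4 ADRA2A libraries and 0 over the 4 empty-vector libraries, and with no filter beyond 1 count its edgeR adjusted p-value was 0.00131. ADH1A had 6 counts over the 4 ADRA2A libraries, all in replicates 1 and 2, and 0 over the empty-vector libraries (edgeR adjusted p = 0.0814 with no filter). Both genes were picked for having 0 counts in the empty-vector group and some in the ADRA2A group. Their p-values test that same difference and are no independent support. Both share stretches of sequence with ADH1C, which rose, and the part of shared reads was not tested.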

How the results depend on the processing

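Over the 7 other settings, members called higher numbered between 11 and 13 and members called lower between 8 and 9. Leaving out each library in turn gave 12 higher in every fit and between 7 and 10 lower. Of 431 comparisons of the 29 tested members with an alternative, 422 kept their side of the threshold, of which 418 also kept direction and 4 (ALDH18A1 in 3 settings, ALDH7A1 in 1), never called, lay near 0 and changed sign, 4 lost the call (all ALDH3A1) and 5 gained one (ALDH16A1 in 4 settings, AKR1C3 in 1). Without 1 library, the other-enzyme list had between 5 and 9 genes called higher, the retinoid list between 1 and 4 called lower, and the log2 difference of summed AKR1C CPM lay between -0.221 and -0.16 with an exact permutation p of up to 0.0571. That sum was lower in the ADRA2A cells in each of these fits. Same-numbered samples did not deviate together (correlations between -0.042 and 0.07). These correlations cannot show whether same-numbered samples were handled together, which the labels do not say. With the replicate block 12 members were called higher and 8 lower, and 6400 genes in all, and the HSD17B2 and CYP26B1 calls were lost (adjusted p = 0.0568 and 0.0644). Upper quartile factors moved the median log2 fold change of all genes to -0.016. With the filter at a mean of 50 counts, ALDH1A2, ALDH1L1, ALDH1L2 and AKR1E2 could not be tested. With the canonical in place of the longest transcript, a choice made after seeing the data, ALDH1A3 ranked 1 in the empty-vector and 3 in the ADRA2A cells, as with the longest. Low counts limit what can be said of ALDH1L1, ADH1A, ADH1B and AKR1C4.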
